A study of Mus musculus with 11 samples.

Results

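The genes described here encode ATP-dependent chromatin remodelers and proteins that read acetylated histones through a bromodomain. A list of 47 gene symbols defined them, and all 47 were found among the 48593 genes of the deposited table and passed the filter on low values. RNA was sequenced from mouse germinal center B cells, sorted from spleen as B220+PNA+CD95+ cells 12 days after intraperitoneal immunization with sheep red blood cells. The CBP-KO group (n = 3) was Crebbpfl/fl;Ep300+/+;Cg1cre/+, the p300-KO group (n = 3) was Crebbp+/+;Ep300fl/fl;Cg1cre/+, and the WT group (n = 5) was Crebbp+/+;Ep300+/+;Cg1cre/+. Every group, WT included, carried a Cre recombinase driven from the immunoglobulin Cγ1 locus, which is switched on in B cells that enter the germinal center reaction, so the floxed alleles are deleted after that point. The WT mice were littermates from the Crebbp crosses, so a difference between p300-KO and WT cannot be told apart from a difference between the crosses. The labels give no sex, litter or date and do not state that the libraries came from separate mice, so p-values measure the spread between these libraries.

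Remodelers are motors that use ATP to slide, evict or exchange nucleosomes. They fall into families by their ATPase: SWI/SNF (assembled as BAF, PBAF and ncBAF complexes), CHD (which includes the motors of the NuRD corepressor), ISWI, and the INO80, SRCAP and p400 group. Bromodomains bind acetylated lysines, the mark that CBP and p300 write on histones, and occur both in remodeler subunits and in separate readers such as the BET proteins. Mutations of CREBBP and of SWI/SNF genes recur in human lymphomas of germinal center origin.

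Each library held between 53550726 and 132861266 reads, and every member was covered by at least 1364 reads in every library, a counting error of at most 2.71%. The median counting error over members and groups was 0.878%, beside a median SD between libraries of 5.21%. The SD was at or below the counting error in 4 of 141 cases, Brpf3 in CBP-KO and Brd3, Brd8 and Brd9 in p300-KO. The 47 members together made up 1.18 to 1.21% of all normalized counts in CBP-KO libraries, 1.15 to 1.20% in p300-KO libraries and 1.09 to 1.14% in WT libraries. Their summed normalized counts were 904606 to 924087 in CBP-KO, 872692 to 920757 in p300-KO and 856462 to 890649 in WT libraries. By that sum p300-KO overlapped WT. Ep300 had 13773 to 14829 normalized counts in p300-KO libraries and 19310 to 22498 in WT libraries (log2 fold change -0.55, limma adjusted p = 0.00015). Crebbp had 7541 to 8606 in CBP-KO libraries and 7984 to 9584 in WT libraries (log2 fold change -0.10, limma adjusted p = 0.459), so the count over the whole gene did not check the CBP-KO label. Library p300-KO_18 (names follow the labels) held both Xist (98751 normalized counts) and Y-linked transcripts (summed count 9852), whereas each of the other 10 libraries was high in 1 of these and low in the other. Calls that rest on p300-KO are therefore given with and without that library. Summed counts of 10 germinal center B cell markers were 371825 to 455369 in CBP-KO, 442776 to 482971 in p300-KO and 439286 to 470218 in WT libraries, with 3 of 10 lower in CBP-KO, and 2 higher and 2 lower in p300-KO. The summed counts of 9 macrophage markers were lower in both knockouts, at 1969 to 2877 in CBP-KO, 2404 to 3222 in p300-KO and 3501 to 9333 in WT libraries, with WT_46 highest among WT. In that list 4 markers were lower in CBP-KO and 1 in p300-KO by the test below, and C1qb, C1qc and Vcam1 were at 0 in some library. The log2 fold change was below 0 for all 9 in CBP-KO, and below 0 for 5 and above 0 for 4 in p300-KO. The summed counts of 6 plasma cell markers were 54524 to 64631 in CBP-KO, 68255 to 81273 in p300-KO and 52903 to 62833 in WT libraries, with 3 of 5 tested markers higher in p300-KO and Tnfrsf17 at 0 in some library. The dendritic cell markers summed to 2956 to 3472 in CBP-KO, 2627 to 2773 in p300-KO and 4307 to 5722 in WT libraries, with 1 of 4 tested markers lower in each knockout and Siglech at 0 in some library. The T cell markers summed to 146 to 218 in CBP-KO, 210 to 233 in p300-KO and 228 to 348 in WT libraries, with 1 of 4 lower in CBP-KO and Cd3e, Cd3g and Cd8a at 0 in some library. The cycling cell markers summed to 582935 to 639901 in CBP-KO, 535340 to 604465 in p300-KO and 571723 to 624038 in WT libraries, with 1 of 9 higher in CBP-KO and 2 lower in p300-KO. The naive or memory B cell markers summed to 16509 to 25398 in CBP-KO, 30174 to 37801 in p300-KO and 18110 to 33973 in WT libraries, with 0 of 6 called by limma in either comparison and 3 and 0 at an unadjusted p below 0.05. Stromal or endothelial markers summed to 15062 to 22356 in CBP-KO, 15105 to 20391 in p300-KO and 16936 to 28009 in WT libraries, with 2 of 3 tested markers lower in CBP-KO, 1 higher in p300-KO, and Cxcl13 and Col1a1 at 0 in some library. The part of these other cells in the results below was not tested.

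Transcript level per length, taken as normalized count per kilobase of exon, spread 36.6-fold over the members in WT libraries around a median of 1417. Smarca4, the main SWI/SNF motor of these cells by this measure and known as BRG1, was the highest at 9956 ± 297 per kb in WT (SD, n = 5). The NuRD motor Chd4 (7125 ± 286) and the KRAB zinc finger corepressor Trim28 (7119 ± 300) came next and lay within each other's SD. The SWI/SNF subunit Smarcd2 (6365 ± 538) and the BET reader Brd2 (5400 ± 234) followed. At the low end were Chd2 (395 ± 33.7), the nuclear receptor cofactor Trim24 (346 ± 27.9), the SWI/SNF subunit Bcl7c (277 ± 15.1) and Smarca2 (272 ± 31.5), the last 2 within each other's SD. Smarca2 is the alternative SWI/SNF motor, known as BRM, and takes the place of Smarca4 in the complex. The paralog motors thus stood at opposite ends of this order in WT. The order depends on the length used, which joins all annotated exons, 14.27 kb for Smarca2 and 6.47 kb for Smarca4. Which of these exons the cells transcribed was not tested. By normalized count alone Smarca2 averaged 3886 in WT, above Bcl7c (1999), Trim24 (2947) and Bcl7b (3506).

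**Figure D1:**
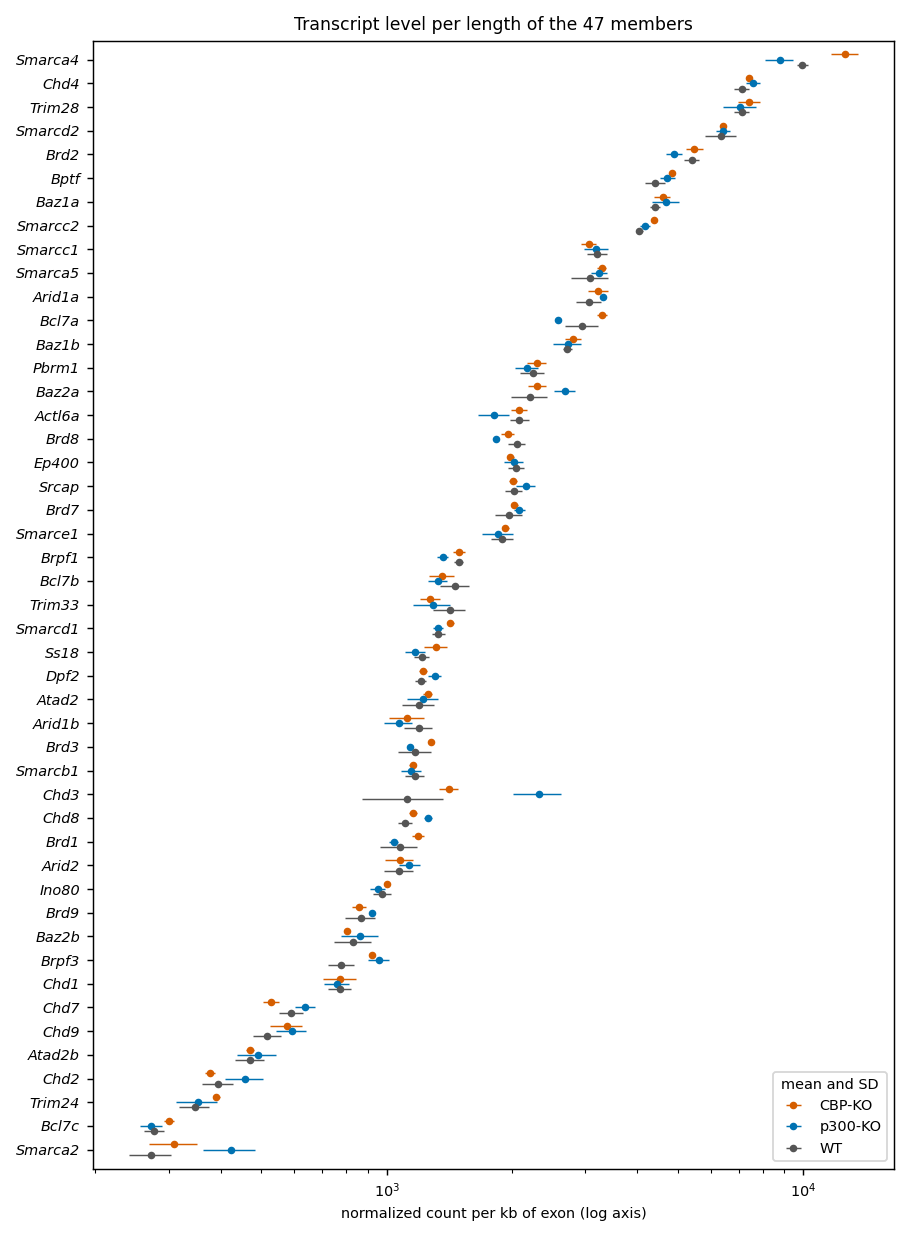
Normalized count per kilobase of exon (log axis) for each of the 47 members, as group mean and SD for CBP-KO (n = 3), p300-KO (n = 3) and WT (n = 5), ordered by level. Smarca4 stood highest and Smarca2 lowest in WT, 36.6-fold apart.

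The comparisons ask what loss of either acetyltransferase, in B cells that already entered the germinal center reaction, does to the transcripts of this machinery. In both knockouts most members stayed close to WT. Those that passed the test were Smarca4 and Brpf3 in CBP-KO, and Chd3, Smarca2, Brpf3, Chd8, Baz2a and Brd8 in p300-KO. In 24 alternative analyses, with other settings or libraries left out, the call on Brd8 was kept in 9, Baz2a in 17 and Chd8 in 21. The CBP-KO call on Brpf3 was kept in 20, and the other calls held in all 24. Fold changes are differences of mean log2(normalized count + 1), tested with limma over 16515 genes with Benjamini-Hochberg adjustment, and a member is called where the adjusted p is below 0.05. In CBP-KO against WT 2 of 47 members (4.26%) were called, beside 8.36% of all genes tested. Both were higher, beside 3.48% of all genes called higher, and 0 were lower by limma, beside 4.88% of all genes. At an unadjusted limma p below 0.05 there were 8 members (17.0%) in either direction, beside 22.6% of all genes. In p300-KO against WT 6 of 47 (12.8%) were called, beside 11.9% of all genes. Of these 5 (10.6%) were higher, beside 5.84% of all genes, and 1 (2.13%) was lower, beside 6.09%. At an unadjusted limma p below 0.05 there were 14 members (29.8%), beside 25.7% of all genes. The overall shares called thus lay below the background in CBP-KO and near it in p300-KO.

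The shifts of the members were small. The median log2 fold change of the members was 0.04 in CBP-KO against WT, beside 0.01 over all genes, and 0.01 in p300-KO against WT, beside -0.01. The median size of the change regardless of direction was 0.06 for members and 0.14 for all genes in CBP-KO, and 0.09 and 0.16 in p300-KO. The background takes in genes down to a mean of 10, whereas every member had at least 1364 reads in every library. Sparsely read genes spread more widely, and the part of expression level in this gap was not tested. The 95% interval of the fold change lay within 0.5 log2 units of 0 for 46 members in CBP-KO, with Chd3 the exception, and for 45 in p300-KO, with Smarca2 and Chd3 the exceptions. All CBP-KO libraries lay outside the WT range for 5 members (10.6%), beside 16.9% of all genes. All p300-KO libraries did so for 10 members (21.3%), beside 19.0% of all genes. The 2 comparisons share the WT libraries.

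**Figure D2:**
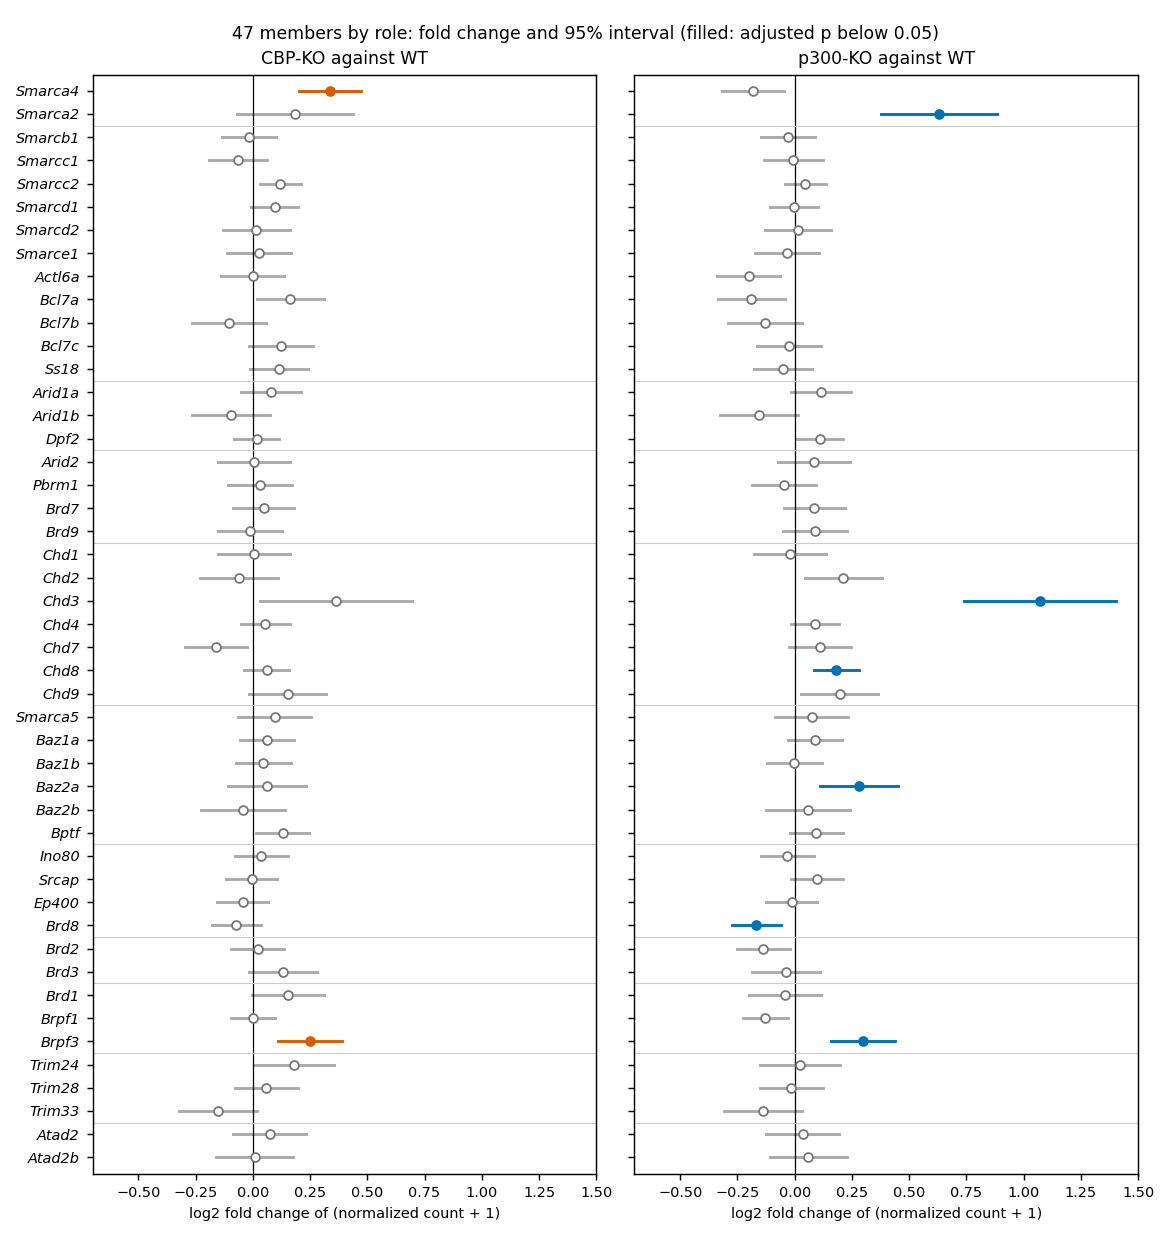
Log2 fold change with its 95% interval for the 47 members grouped by role, in CBP-KO against WT and p300-KO against WT, filled where the limma adjusted p was below 0.05. Most intervals straddle or lie near 0, and Chd3 in p300-KO against WT, at 1.07, is the farthest from 0.

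Of the SWI/SNF motors, Smarca4 was higher in CBP-KO and Smarca2 was higher in p300-KO. Their upstream sequences are shown because CBP and p300 act through promoters and enhancers. The sequences of the other called members are not printed. Both are RefSeq sequences of GRCm38.p6, read 5′ to 3′ on the plus strand and ending at the base before the first exon in GENCODE, with each CpG in capitals. Smarca4 spans chr9:21616169-21704230 on the plus strand, and its 250 bases lie at chr9:21615919-21616168. Smarca2 spans chr19:26605050-26778322 on the plus strand, and its 140 bases lie at chr19:26604910-26605049.
Smarca4: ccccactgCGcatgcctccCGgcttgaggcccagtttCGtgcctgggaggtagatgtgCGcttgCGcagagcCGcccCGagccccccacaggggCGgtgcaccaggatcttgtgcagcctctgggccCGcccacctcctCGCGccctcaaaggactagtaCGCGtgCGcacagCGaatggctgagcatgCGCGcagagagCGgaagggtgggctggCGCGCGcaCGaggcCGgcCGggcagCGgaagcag
Smarca2: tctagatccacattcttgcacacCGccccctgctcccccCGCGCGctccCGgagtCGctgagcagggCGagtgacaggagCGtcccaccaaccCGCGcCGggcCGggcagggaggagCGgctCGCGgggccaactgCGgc
The Smarca4 sequence held 25 CpG sites at 70.8% GC, and the shorter Smarca2 sequence held 16 at 73.6% GC, so both are CpG-rich. A search on both strands for the cAMP response element TGACGTCA, the site of the CREB factors that recruit CBP, and for its shorter core TGACG found neither string in either window. Over the 250 bases upstream of the start in the 42 promoters that RefSeq lists for 35 of the 47 members, TGACGTCA occurred in 2 (4.76%), beside 1.99% of 20150 protein-coding promoters. TGACG, which every TGACGTCA contains, occurred in 9 (21.4%), beside 20.7% of them. The median promoter of the members held 22.5 CpG sites at 67.6% GC, beside 10 sites at 56.0% GC in protein-coding promoters.

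Smarca4 had 75247, 81764 and 87492 normalized counts in the CBP-KO libraries, 56261, 52935 and 61591 in the p300-KO libraries, and 65371, 66170, 64950, 61179 and 64645 in the WT libraries. All CBP-KO libraries lay above all WT libraries, while the highest p300-KO library overlapped the lowest WT library. Smarca4 was 1.26-fold higher in CBP-KO than in WT (log2 fold change 0.34 ± 0.06 SE, limma adjusted p = 0.00577). This call held in all 24 alternative analyses, among them 11 that each left out 1 library. In p300-KO against WT its log2 fold change was -0.18 (95% interval -0.32 to -0.05, limma adjusted p = 0.0784) and did not pass. In these bulk libraries a change in the make-up of the sorted cells and a change of RNA per cell cannot be told apart.

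Smarca2 had 4747, 4750 and 3757 normalized counts in the CBP-KO libraries, 5256, 6952 and 5859 in the p300-KO libraries, and 3766, 4273, 3918, 3189 and 4286 in the WT libraries. All p300-KO libraries lay above all WT and all CBP-KO libraries. Smarca2 was 1.55-fold higher in p300-KO than in WT (log2 fold change 0.63 ± 0.12 SE, limma adjusted p = 0.00437). Without p300-KO_18 the log2 fold change was 0.72 (limma adjusted p = 0.00746), and the call held in all 24 alternatives. In CBP-KO against WT its log2 fold change of 0.18 had a 95% interval of -0.07 to 0.44 (limma adjusted p = 0.394). Per kb of exon, Smarca2 made up 4.07, 5.62 and 4.14% of the summed Smarca2 and Smarca4 transcripts in the p300-KO libraries. The same share was 2.78, 2.57 and 1.91% in the CBP-KO libraries and 2.31 to 2.92% in the WT libraries. By count alone, Smarca2 relative to Smarca4 was 9.34 to 13.1% in p300-KO libraries, 4.29 to 6.31% in CBP-KO libraries and 5.21 to 6.63% in WT libraries. By either measure Smarca4 supplied most of the SWI/SNF motor transcript in every library, with the largest Smarca2 share in p300-KO.

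**Figure D3:**
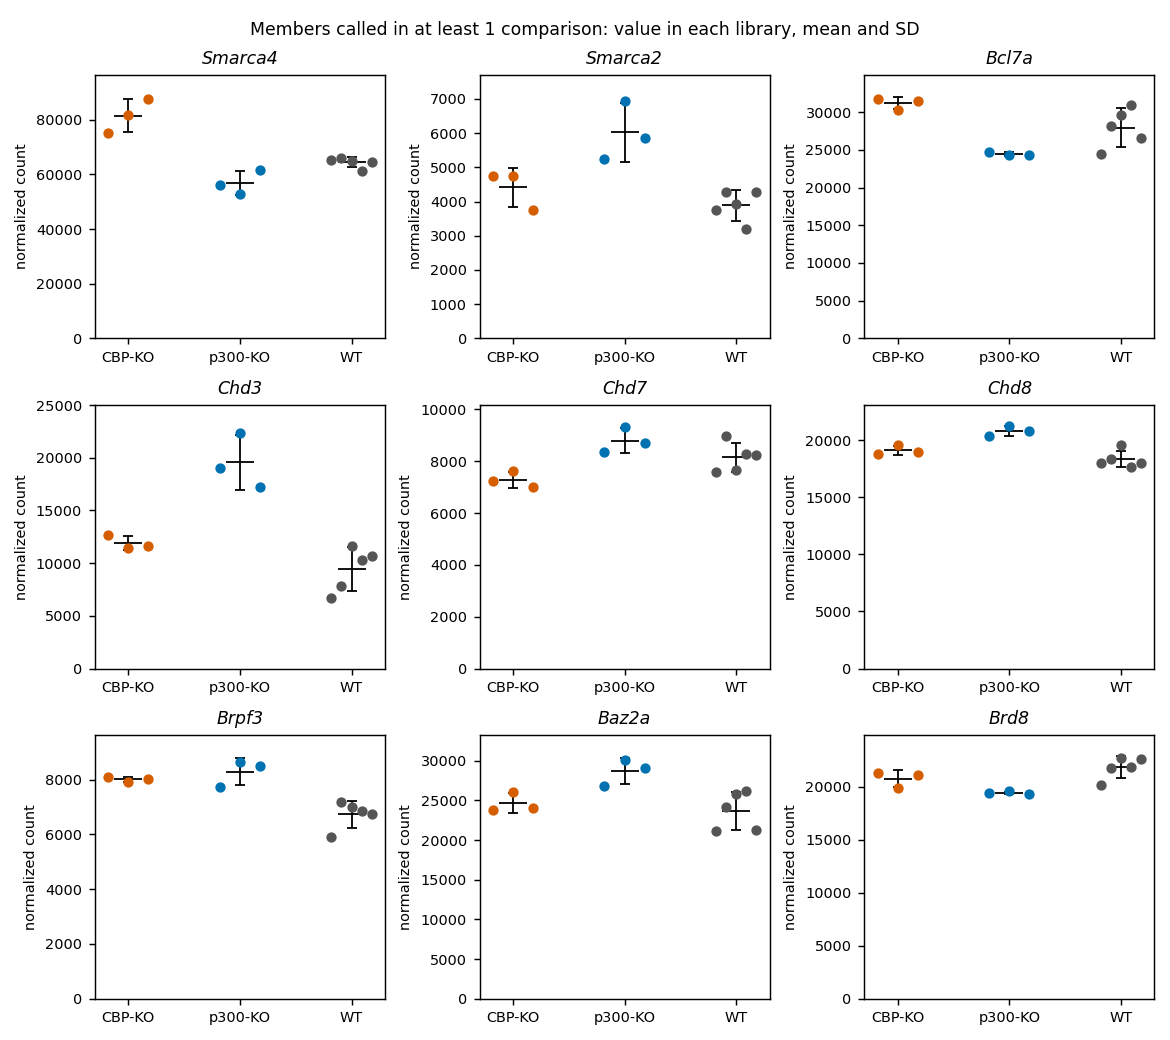
Normalized counts in each library for the members called in at least 1 comparison, with group mean and SD for CBP-KO (n = 3), p300-KO (n = 3) and WT (n = 5). Smarca4 is highest in the CBP-KO libraries, while Smarca2 and Chd3 are highest in the p300-KO libraries.

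**Figure D4:**
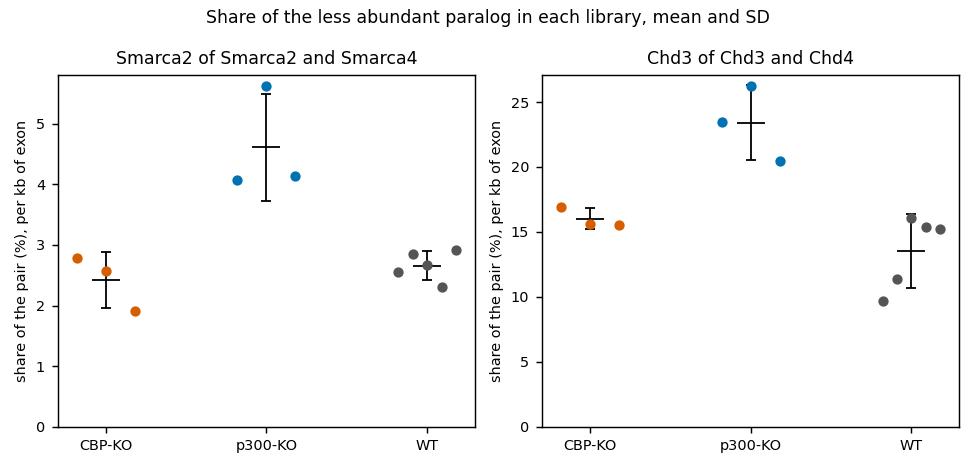
Share of the less abundant paralog within the Smarca2 and Smarca4 pair and the Chd3 and Chd4 pair, per kilobase of exon, in each library with group mean and SD. The p300-KO libraries lie above all others in both pairs, at 4.07 to 5.62% for Smarca2 and 20.5 to 26.3% for Chd3.

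Of the 11 core and shared SWI/SNF subunits, 0 were called in either knockout against WT by limma, with 2 at an unadjusted p below 0.05 in each comparison. The nearest to the threshold in CBP-KO was Smarcc2, a scaffold subunit, with 24041, 24225 and 24862 normalized counts against a WT range of 21844 to 23096. Its groups did not overlap, and its log2 fold change was 0.12 (limma adjusted p = 0.0997). In p300-KO the nearest was Actl6a, the actin-related subunit that SWI/SNF shares with the INO80 and p400 complexes. It had 7248, 6383 and 7524 counts in p300-KO against 7688 to 8764 in WT, again without overlap (log2 fold change -0.20, limma adjusted p = 0.0581). Exons of Actl6a and Mrpl47 share 452 bases, 11.6% of the Actl6a exons, and the library kit does not mark strand, so part of these reads could come from either gene.

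Bcl7a, a small SWI/SNF subunit first found at a translocation in a human B cell lymphoma, had 31799, 30272 and 31523 normalized counts in CBP-KO libraries. It had 24716, 24280 and 24269 in p300-KO libraries, and 24456, 28140, 29625, 30947 and 26570 in WT libraries. The knockouts lay toward opposite ends of the wide WT range, and neither differed from WT by limma (adjusted p = 0.167 in CBP-KO and 0.0885 in p300-KO). The remaining core subunits stayed near WT. Smarcb1, the SNF5 core subunit, averaged 9155 ± 163 in CBP-KO, 9078 ± 504 in p300-KO and 9266 ± 485 in WT (SD, n = 3, 3 and 5). Ss18, the subunit fused in human synovial sarcoma, averaged 12372 ± 787 in CBP-KO, 11037 ± 635 in p300-KO and 11428 ± 489 in WT. Over the 11 genes, log2 fold changes ran between -0.10 and 0.16 in CBP-KO and between -0.20 and 0.05 in p300-KO.

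None of the 3 subunits particular to BAF and none of the 4 particular to PBAF or ncBAF was called against WT in either knockout by limma. At an unadjusted p below 0.05 there was 1 BAF subunit in p300-KO and 0 of these 7 genes in CBP-KO. Arid1a, the DNA-binding BAF subunit often mutated in human cancers, averaged 36956 ± 2027 in CBP-KO, 37857 ± 346 in p300-KO and 35048 ± 2429 in WT. Its p300-KO libraries lay just above all WT libraries (log2 fold change 0.11, limma adjusted p = 0.265). Its paralog Arid1b had log2 fold changes of -0.10 in CBP-KO and -0.16 in p300-KO (limma adjusted p = 0.535 and 0.233). Dpf2, the PHD finger subunit of BAF, had 0.02 in CBP-KO and 0.11 in p300-KO (limma adjusted p = 0.888 and 0.143). The PBAF subunits Arid2, Pbrm1 and Brd7 and the ncBAF subunit Brd9 had log2 fold changes between -0.01 and 0.05 in CBP-KO and between -0.05 and 0.09 in p300-KO. Each of these 7 subunits had a smaller fold change than either motor in the same comparison.

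Among the 7 CHD remodelers Chd3 and Chd8 were higher in p300-KO, and 0 were called in CBP-KO by limma, with 2 at an unadjusted p below 0.05. Chd3 is an alternative NuRD motor to Chd4 (chr11:69343273-69369406, minus strand). It had 12648, 11432 and 11648 normalized counts in the CBP-KO libraries, 19063, 22393 and 17224 in the p300-KO libraries, and 6728, 7876, 11675, 10284 and 10649 in the WT libraries. Every p300-KO library exceeded every other library by far, while the WT libraries themselves fell into a lower pair (WT_4 and WT_7) and a higher group of 3. Chd3 was 2.10-fold higher in p300-KO than in WT (log2 fold change 1.07 ± 0.15 SE, limma adjusted p = 0.000964). Without p300-KO_18 the log2 fold change was 1.09 (limma adjusted p = 0.00594), and the call held in all 24 alternatives. In CBP-KO against WT the log2 fold change was 0.36, with a 95% interval of 0.03 to 0.70 (limma adjusted p = 0.18).

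Chd4, the far more abundant NuRD motor, averaged 59309 ± 848 in CBP-KO, 60791 ± 2416 in p300-KO and 57134 ± 2293 in WT. Its log2 fold changes of 0.05 in CBP-KO and 0.09 in p300-KO did not pass (limma adjusted p = 0.571 and 0.273). Chd3 accordingly made up 23.5, 26.3 and 20.5% of the summed Chd3 and Chd4 transcripts per kb in the p300-KO libraries. The same share was 16.9, 15.6 and 15.5% in the CBP-KO libraries and 9.69, 11.38, 16.04, 15.41 and 15.25% in the WT libraries. This share, like that of Smarca2, was chosen after its values were seen and is a description without a test.

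Chd8, a CHD remodeler that binds β-catenin, had 20327, 21194 and 20799 normalized counts in the p300-KO libraries and 18036, 18328, 19543, 17690 and 18036 in the WT libraries. The groups did not overlap, and the increase was small (log2 fold change 0.18 ± 0.05 SE, limma adjusted p = 0.0209). It was 0.20 without p300-KO_18 (limma adjusted p = 0.0446). The call was lost without p300-KO_287 (limma adjusted p = 0.0728) or p300-KO_289 (limma adjusted p = 0.0707), and also without WT_46 and p300-KO_18 together (limma adjusted p = 0.0652). In CBP-KO, Chd8 had 18742, 19535 and 19000 counts (log2 fold change 0.06, limma adjusted p = 0.49).

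Chd7, known for its mutation in human CHARGE syndrome, had 7244, 7615 and 6999 normalized counts in CBP-KO libraries and 8349, 9310 and 8712 in p300-KO libraries, against 7581 to 8962 in WT libraries. Neither knockout was called against WT (limma adjusted p = 0.147 and 0.297). Chd2 averaged 5399 ± 149 in CBP-KO, 6543 ± 695 in p300-KO and 5644 ± 482 in WT, and its log2 fold change of 0.21 in p300-KO did not pass (limma adjusted p = 0.102). Exons of Chd2 and the transcript 1810026B05Rik share 2628 bases, 18.4% of the Chd2 exons. Chd9 had log2 fold changes of 0.15 in CBP-KO and 0.20 in p300-KO (limma adjusted p = 0.267 and 0.126). Chd1 stayed at 6753 ± 603 in CBP-KO, 6621 ± 459 in p300-KO and 6722 ± 428 in WT.

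Of the 6 ISWI genes, Baz2a alone was called, in p300-KO. Baz2a is the large subunit of NoRC, the complex that silences ribosomal RNA genes. It had 26884, 30087 and 29118 normalized counts in the p300-KO libraries, 23858, 26126 and 24010 in the CBP-KO libraries and 21158, 24147, 25804, 26159 and 21243 in the WT libraries. The p300-KO libraries lay above the rest, the lowest by a narrow margin. The increase over WT was 1.21-fold (log2 fold change 0.28 ± 0.08 SE, limma adjusted p = 0.0354). It held without p300-KO_18 (0.33, limma adjusted p = 0.0473) and was lost without p300-KO_287 (limma adjusted p = 0.13) or p300-KO_289 (limma adjusted p = 0.109). It was also lost without WT_4 (limma adjusted p = 0.0663), WT_7 (limma adjusted p = 0.0559) or WT_288 (limma adjusted p = 0.069). It did not pass with no filter on low values (limma adjusted p = 0.0537) or with p300-KO and WT alone in the fit (limma adjusted p = 0.0591). In all, 17 of 24 alternatives kept it.

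The ISWI motor Smarca5 averaged 25506 ± 639 in CBP-KO, 25166 ± 1122 in p300-KO and 23978 ± 2399 in WT, with neither comparison called (limma adjusted p = 0.504 and 0.584). Its partners Baz1a, of the ACF complex, and Baz1b, of the WICH complex, had log2 fold changes of 0.06 and 0.04 in CBP-KO and 0.09 and 0.00 in p300-KO. Baz2b had -0.04 in CBP-KO and 0.06 in p300-KO. Bptf, the NURF subunit that combines a bromodomain with a methyl-lysine reader, averaged 68004 ± 925 in CBP-KO, 66394 ± 2743 in p300-KO and 62208 ± 3323 in WT. All CBP-KO libraries lay above the WT range for Bptf, yet the log2 fold change of 0.13 did not pass (limma adjusted p = 0.166).

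In the INO80, SRCAP and p400 group, 0 of 4 genes were called in CBP-KO by limma, with 0 at an unadjusted p below 0.05, and Brd8 was lower in p300-KO. Brd8 is the bromodomain subunit of the p400 complex. It had 19400, 19557 and 19298 normalized counts in the p300-KO libraries, 21314, 19866 and 21097 in the CBP-KO libraries and 20180, 21754, 22741, 21843 and 22656 in the WT libraries. The p300-KO libraries agreed closely with each other and lay below the WT range (log2 fold change -0.17 ± 0.05 SE, limma adjusted p = 0.0445). That call was kept in 9 of 24 alternatives and, of the 11 analyses without 1 library, only without WT_4. It was lost without p300-KO_18 (limma adjusted p = 0.112), and the highest adjusted p without 1 library was 0.125. The motors of the group, Ino80, Srcap and Ep400, had log2 fold changes of 0.04, -0.01 and -0.04 in CBP-KO and -0.03, 0.10 and -0.01 in p300-KO, none of them called. In the annotation 61.7% of the Srcap exon bases also belong to a second gene model, Gm42715, so how the authors' counting shared such reads bears on the Srcap level. Overlaps of over 5% of a member's exons were also annotated for Smarcd1 and Chd8.

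Both BET readers, which tether elongation factors to acetylated chromatin, stayed below the threshold. Brd2 averaged 42884 ± 1979 in CBP-KO, 38409 ± 1732 in p300-KO and 42259 ± 1833 in WT. All p300-KO libraries lay below the WT range for Brd2, and its log2 fold change was -0.14 (limma adjusted p = 0.118). Exons of Brd2 and its neighbour H2-DMa share 360 bases, 4.60% of the Brd2 exons, and CR974462.3 shares 5.18% of them. Brd3 averaged 9388 ± 144 in CBP-KO, 8346 ± 53.9 in p300-KO and 8599 ± 796 in WT, with log2 fold changes of 0.13 and -0.04 (limma adjusted p = 0.276 and 0.788).

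Brpf3 was higher in both knockouts, the only member called in both by limma. The BRPF proteins are bromodomain scaffolds of the MOZ, MORF and HBO1 acetyltransferase complexes, and Brpf3 lies at chr17:28801090-28839949 on the plus strand. It had 8095, 7912 and 8003 normalized counts in the CBP-KO libraries, 7737, 8621 and 8509 in the p300-KO libraries, and 5907, 7171, 7001, 6865 and 6754 in the WT libraries. All 6 knockout libraries lay above all 5 WT libraries. The increase was 1.19-fold in CBP-KO (log2 fold change 0.25 ± 0.06 SE, limma adjusted p = 0.0306) and 1.23-fold in p300-KO (0.30 ± 0.06 SE, limma adjusted p = 0.00983). Both rest on the same WT libraries. The CBP-KO call was lost without CBP-KO_1 (limma adjusted p = 0.084), CBP-KO_53 (limma adjusted p = 0.0958) or CBP-KO_55 (limma adjusted p = 0.104), or without WT_288 (limma adjusted p = 0.0514). The p300-KO call held in all 24 alternatives, and was 0.35 without p300-KO_18 (limma adjusted p = 0.014). Exons of Brpf3 share 272 bases with the sparsely expressed AC140278.1, 3.14% of the Brpf3 exons.

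The other BRPF scaffolds did not pass. Brpf1 averaged 10102 ± 343 in CBP-KO, 9234 ± 265 in p300-KO and 10096 ± 265 in WT, with all p300-KO libraries below the WT range (log2 fold change -0.13, limma adjusted p = 0.0851). Brd1 averaged 9998 ± 339 in CBP-KO, 8732 ± 218 in p300-KO and 9029 ± 906 in WT, with log2 fold changes of 0.15 and -0.04 (limma adjusted p = 0.236 and 0.774). The count of Brpf3 relative to Brpf1 was 76.6 to 82.9% in CBP-KO libraries, 81.7 to 96.3% in p300-KO libraries and 60.4 to 69.8% in WT libraries, without overlap between either knockout and WT.

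The 3 TRIM bromodomain proteins and the 2 ATAD2 proteins held 0 limma calls in either comparison with WT, and 1 of them, Trim24, had an unadjusted p below 0.05, in CBP-KO. Trim24 had a log2 fold change of 0.18 in CBP-KO and 0.02 in p300-KO (limma adjusted p = 0.213 and 0.906). Trim33, a regulator of SMAD signalling, had -0.15 in CBP-KO and -0.14 in p300-KO (limma adjusted p = 0.278 and 0.305). Trim28 averaged 30852 ± 1833 in CBP-KO, 29358 ± 2634 in p300-KO and 29602 ± 1246 in WT. Atad2, an ATPase with a bromodomain that is high in dividing cells, averaged 20114 ± 486 in CBP-KO, 19616 ± 1672 in p300-KO and 19167 ± 1691 in WT, and Atad2b moved by less than 0.1 log2 units in both. Smarcd1, Arid2, Brd1 and Atad2 lie on chromosome 15 with Ep300, and these 4 linked genes were not called against WT in either knockout.

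The knockouts were also compared with each other, which asks whether loss of CBP and loss of p300 left these genes at different levels. As for p300-KO against WT, such a difference cannot be told apart from a difference between the crosses. Smarca4 and Bcl7a were higher, and Chd3, Smarca2 and Chd7 lower, in CBP-KO than in p300-KO. These 5 of 47 members (10.6%) stand beside 9.42% of all genes, with 2 (4.26%) higher beside 4.79% and 3 (6.38%) lower beside 4.63%. At an unadjusted limma p below 0.05 there were 14 members (29.8%), beside 25.0% of all genes. The libraries of the knockouts did not overlap for 20 members (42.6%), beside 31.0% of all genes. The median log2 difference was 0.02 for members and 0.00 for all genes, and its median size was 0.08 and 0.17. The background again takes in genes of far lower level than the members.

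Smarca4 was 1.43-fold higher in CBP-KO than in p300-KO (log2 difference 0.52 ± 0.07 SE, limma adjusted p = 0.000739), and the call held in all 24 alternatives, at 0.51 without p300-KO_18 (limma adjusted p = 0.00495). Bcl7a was 1.28-fold higher (0.35 ± 0.08 SE, limma adjusted p = 0.012), and its call also held in all 24, at 0.36 without p300-KO_18 (limma adjusted p = 0.0377). Chd3 was lower in CBP-KO by a log2 difference of -0.71 ± 0.17 SE (limma adjusted p = 0.0227). That call was lost without CBP-KO_53 (limma adjusted p = 0.0767) or CBP-KO_55 (limma adjusted p = 0.0755), and without p300-KO_18 (limma adjusted p = 0.0622) or p300-KO_287 (limma adjusted p = 0.0871). It was also lost without WT_46 and p300-KO_18 together (limma adjusted p = 0.0522). Smarca2 lay at the threshold (log2 difference -0.45, limma adjusted p = 0.0499), and its call was kept in 11 of 24 alternatives and in 2 of the 11 analyses without 1 library. Its limma adjusted p was 0.189 without CBP-KO_55 and 0.0479 without p300-KO_18. Chd7 was lower in CBP-KO by -0.27 ± 0.07 SE (limma adjusted p = 0.0311). That call was lost without CBP-KO_1 (limma adjusted p = 0.0687), CBP-KO_53 (limma adjusted p = 0.0518) or CBP-KO_55 (limma adjusted p = 0.115), and without p300-KO_287 (limma adjusted p = 0.107) or p300-KO_289 (limma adjusted p = 0.0649), and kept without p300-KO_18 (limma adjusted p = 0.0453). Brpf3 did not differ beyond the spread (log2 difference -0.05, 95% interval -0.21 to 0.11, limma adjusted p = 0.727).

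Among 11 pairs of related members, the ratio of counts within a library did not overlap between CBP-KO and WT for 2 pairs (18.2%), between p300-KO and WT for 4 (36.4%) and between the knockouts for 5 (45.5%). For single genes that share was 10.6, 21.3 and 42.6% over the members and 16.9, 19.0 and 31.0% over all genes tested. Single genes are not a background for ratios, and the share over other pairs of genes was not computed. Several of the pairs hold a called member. Smarca2 relative to Smarca4, Chd3 relative to Chd4 and Baz1a relative to Baz1b set p300-KO apart from both other groups. Smarcc2 relative to Smarcc1 was 98.9 to 104% in CBP-KO libraries, 89.3 to 96.5% in p300-KO libraries and 84.5 to 96.0% in WT libraries. Baz1a relative to Baz1b was 84.9 to 87.0% in CBP-KO libraries, 89.3 to 91.4% in p300-KO libraries and 79.1 to 88.0% in WT libraries. Brd3 relative to Brd2 overlapped in all 3 comparisons, at 21.0 to 22.7% in CBP-KO, 21.2 to 22.7% in p300-KO and 17.4 to 23.3% in WT libraries. These ratios carry no test.

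**Figure D5:**
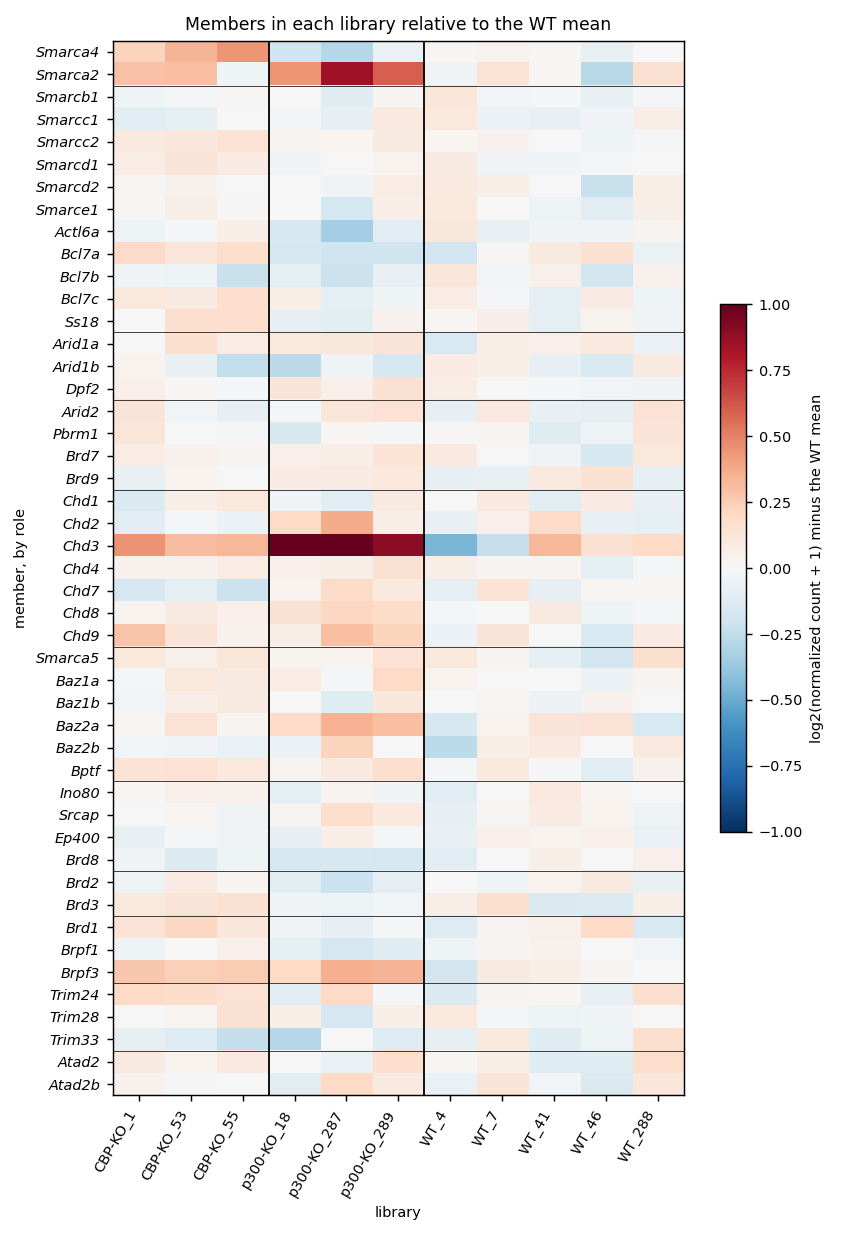
Log2(normalized count + 1) minus the WT mean for the 47 members (rows, by role) in each of the 11 libraries (columns), on a colour scale limited to 1 in either direction, which Chd3 exceeds in p300-KO_18 and p300-KO_287. Chd3 and Smarca2 are raised in all p300-KO libraries and Smarca4 in all CBP-KO libraries, while most other rows stay near 0.

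Beyond the 47 members, 84 partner genes of the same complexes and families were listed, of which 81 passed the filter and Actl6b, Bcl11b and Smarca1 did not. In CBP-KO against WT 4 of these were higher and 2 lower, with a median log2 fold change of 0.04. In p300-KO against WT 3 were higher and 5 lower, with a median of -0.02. In CBP-KO against p300-KO 5 were higher and 2 lower, with a median of 0.06. The shares called were 7.41, 9.88 and 8.64%, near the 8.36, 11.9 and 9.42% of all genes. Of the 23 CHD, NuRD and SNF2-like partners, 2 were higher and 1 lower in CBP-KO, and 2 higher and 1 lower in p300-KO. Of the 16 other bromodomain genes, 2 were higher and 1 lower in CBP-KO, and 1 higher and 1 lower in p300-KO. Of the 9 SWI/SNF partners tested, 1 was lower in p300-KO and 0 were called in CBP-KO by limma, with 1 at an unadjusted p below 0.05. Of the 28 INO80, SRCAP and p400 partners, 2 were lower in p300-KO and 0 were called in CBP-KO, with 3 at an unadjusted p below 0.05. Of the 5 ISWI partners, 0 were called in either knockout against WT, with 0 in CBP-KO and 2 in p300-KO at an unadjusted p below 0.05.

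Mbd2, the methyl-CpG-binding subunit of NuRD, moved in opposite directions in the 2 knockouts. It had 45375, 48194 and 48000 normalized counts in CBP-KO libraries, 33338, 29707 and 35087 in p300-KO libraries, and 38616, 38928, 39964, 40029 and 38435 in WT libraries. The 3 groups did not overlap. Its log2 fold change was 0.27 in CBP-KO (limma adjusted p = 0.0103) and -0.26 in p300-KO (limma adjusted p = 0.00812), and the difference between the knockouts was 0.53 ± 0.06 SE (limma adjusted p = 0.000263). Without p300-KO_18 the p300-KO change was -0.28 (limma adjusted p = 0.0249) and the difference 0.55 (limma adjusted p = 0.00144). The CBP-KO call on Mbd2 was lost without CBP-KO_53 (limma adjusted p = 0.0592) or CBP-KO_55 (limma adjusted p = 0.053). Mta3, another NuRD subunit, known for its expression in germinal center B cells, had 6212 to 6965 counts in CBP-KO, 7672 to 8518 in p300-KO and 7580 to 8228 in WT. It was lower in CBP-KO than in p300-KO (log2 difference -0.28, limma adjusted p = 0.0144), a call lost without CBP-KO_55 (limma adjusted p = 0.0681) or p300-KO_289 (limma adjusted p = 0.0531) and kept without p300-KO_18 (-0.31, limma adjusted p = 0.0305). Against WT, Mta3 was lower in CBP-KO (log2 fold change -0.26, limma adjusted p = 0.0124), a call lost without CBP-KO_55 (limma adjusted p = 0.072).

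The bromodomain genes outside the 47 held some larger changes. Zmynd11, a reader that binds methylated histone in transcribed genes, had 1126, 1498 and 1097 normalized counts in CBP-KO libraries, 1329, 1506 and 1474 in p300-KO libraries, and 527, 563, 724, 369 and 518 in WT libraries. It was higher in both, by log2 fold changes of 1.22 (limma adjusted p = 0.00125) and 1.44 (limma adjusted p = 0.000284), and both calls held in all 24 alternatives, the second with an adjusted p of 0.00176 without p300-KO_18. Sp140, a nuclear body protein of leukocytes, had 16866, 18331 and 16265 counts in CBP-KO, 20714, 19531 and 20472 in p300-KO and 22237 to 25357 in WT libraries. It was lower in both, with log2 fold changes of -0.47 (limma adjusted p = 0.000441) and -0.23 (limma adjusted p = 0.0181). The CBP-KO call on Sp140 held in all 24 alternatives, and the p300-KO call was lost without p300-KO_287 (limma adjusted p = 0.0728) or p300-KO_289 (limma adjusted p = 0.0527) and kept without p300-KO_18 (-0.25, limma adjusted p = 0.0417).

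Brwd1, a WD repeat and bromodomain protein of B cell development, had 29173 to 31546 counts in CBP-KO and 18040 to 25122 in WT. Its log2 fold change was 0.44 (limma adjusted p = 0.0121), a call lost without CBP-KO_53 (limma adjusted p = 0.0667). Rad54l2, a SNF2-like ATPase, had 3813 to 4076 counts in p300-KO and 2705 to 3171 in WT (log2 fold change 0.43, limma adjusted p = 0.00105), and this call held in all 24 alternatives, at 0.46 without p300-KO_18 (limma adjusted p = 0.00487). Rad54l2 was also higher in CBP-KO than in WT (log2 fold change 0.24, limma adjusted p = 0.0315), a call kept in 18 of 24 alternatives. Yy1, the zinc finger subunit of INO80, had 17157 to 17218 counts in CBP-KO and 14190 to 14740 in p300-KO. The difference of 0.25 on the log2 scale (limma adjusted p = 0.00488) held in all 24 alternatives, at 0.24 without p300-KO_18 (limma adjusted p = 0.0246). Against WT, Yy1 was lower in p300-KO (log2 fold change -0.16, limma adjusted p = 0.0202). That call was lost without p300-KO_18 (limma adjusted p = 0.0791) or p300-KO_287 (limma adjusted p = 0.0568). Cecr2, a bromodomain partner of ISWI, had 19763 to 21838 counts in CBP-KO and 15367 to 16424 in p300-KO (log2 difference 0.35, limma adjusted p = 0.0149). That call was lost without CBP-KO_1 (limma adjusted p = 0.0511) or p300-KO_18 (limma adjusted p = 0.062).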

How the data were processed

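Per the submitters' processing notes, reads were handled with CASAVA 1.8, HISAT2, featureCounts and DESeq2 on mm10, and the deposited table holds counts divided by size factors, a normalized count signal per gene. The kit named in the labels, TruSeq RNA v2, does not mark strand. In every library 100% of values were whole multiples of 1 read (tolerance 1e-06), so reads were recovered and count tests run as alternatives. Log2(normalized count + 1) was fitted with limma 3.58.1 (R 4.3.3) in 1 model with a mean per group over 11 libraries and a trended variance, for 16515 genes with a mean of at least 10, with Benjamini-Hochberg adjustment. The fit was tested on simulated data. Exon lengths, positions and overlaps came from GENCODE vM21 (GRCm38, the same build as mm10) and promoters from RefSeq. All 47 members are reported. Partner genes were named by a rule of up to 4 called genes per comparison, those with the smallest p. The members, the partner and marker lists and some alternatives were chosen with earlier results of these data known. The result of 1 marker list is not reported here.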

Additional observations from a re-analysis of the deposited data

Results flagged for a closer look

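A test of the difference between the knockouts themselves (CBP-KO minus p300-KO, limma, log2 scale) set 5 members apart. The difference was 0.52 for Smarca4 and 0.35 for Bcl7a, both higher in CBP-KO. It was -0.71 for Chd3, -0.45 for Smarca2 and -0.27 for Chd7, all lower in CBP-KO. The calls on Smarca4 and Bcl7a held in all 24 alternatives, those on Chd3 and Chd7 in 19 each and that on Smarca2 in 11. The effects of the knockouts against WT share their WT libraries, and the difference does not use those libraries other than for the estimate of spread. A difference between the knockouts cannot be told apart from a difference between the crosses. In a search for single WT libraries far from the other 4, 0 of 47 members showed one. The rule was a Dixon ratio, the gap to the nearest library over the range, above 0.71. With 5 libraries it flags only extreme gaps. Several members came near it, among them the called Smarca4 (0.694, WT_46 lowest) and Brpf3 (0.670, WT_4 lowest). Library p300-KO_18, with Xist at 98751 and Y-linked transcripts at 9852 normalized counts, is 1 of the 3 behind each difference. Without it the difference was 0.51 for Smarca4, 0.36 for Bcl7a, -0.72 for Chd3, -0.54 for Smarca2 and -0.31 for Chd7. Of the 5 calls, that on Chd3 was lost without p300-KO_18 (limma adjusted p = 0.0622). The part of that library's make-up in these values was not tested.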

How the results depend on the processing

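No paired analysis was possible because no library number recurs in a second group. The number of members called was 2 in CBP-KO against WT, 6 in p300-KO against WT and 5 between the knockouts. Over 13 alternatives that kept single libraries in place (pseudocount, filter, scaling, edgeR, DESeq2, voom, library weights, groups in the fit, a covariate from Xist and Y-linked transcripts, and 2 libraries left out together), these counts ran from 2 to 3, 4 to 10 and 4 to 8. Those beyond 1.5 times were DESeq2 in p300-KO against WT (10 members, 5 higher and 5 lower, with Actl6a, Bcl7a, Brpf1 and Smarca4 added) and library weights between the knockouts (8 members). Over all genes, library weights called 2730 in CBP-KO against WT in place of 1380 and 2808 between the knockouts in place of 1556, where DESeq2 called 2338. The cause was not tested. Leaving out 1 library at a time gave 1 to 2, 3 to 6 and 2 to 5 members, and 647 to 1544, 1169 to 2035 and 747 to 1958 genes of all tested. The single member in CBP-KO was Smarca4, left without any 1 of the CBP-KO libraries or WT_288. Without p300-KO_287, Brpf3, Chd3 and Smarca2 were the members called in p300-KO. Between the knockouts Bcl7a and Smarca4 were the 2 left without CBP-KO_53 or CBP-KO_55 or p300-KO_287. No called value changed sign in these alternatives. The same alternatives for partner genes were chosen after seeing the data. Counting error was below the SD between libraries for 137 of 141 pairs of a member and a group.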
